A study of Mus musculus with 10 samples.

Results

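Interferon-stimulated genes are the genes that cells switch on when interferons bind their receptors, and 48 of them were followed here through mouse bone marrow mesenchymal stem cells (MSC) and the populations derived from them. The 48 genes were a listed module, read from the scanner table of bead arrays that held a probe for 19057 genes. Each gene was represented by its brightest probe, the one with the highest mean over all 10 arrays. All 48 had a probe, and 43 were detected (detection p under 0.01) on at least 1 array. Of these, 20 were detected on all 10 arrays and 23 on only some. Ifit1, Mx1, Iigp1, Xaf1 and Parp9 were not detected on any array, so these 5 genes entered no difference.

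All samples came from C57BL/6J mice and carried the source label of adult bone marrow MSC. The groups were undifferentiated MSC (2 arrays, shown apart as MSC 1 and MSC 2) and 8 populations with 1 array each. These were differentiated adipocytes, chondrocytes and osteocytes, the reprogrammed cells from each of the 3 lineages, in vivo derived osteocytes without treatment, and such osteocytes after a treatment. The labels gave neither the agent of the treatment nor the way of reprogramming. They did not say whether animals were pooled or whether the MSC arrays came from separate cultures. The spread between the MSC arrays may therefore be technical. A spread over the 3 differentiated or the 3 reprogrammed arrays is between lineages, with any technical spread added. Levels are given as log2 of the background-corrected, quantile-normalised intensity, a difference of 1 is a 2-fold difference, and a comparison between single arrays has no replicate and no test.

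Between 14896 and 16737 of 45281 probes were detected per array. The mean deposited intensity was 538 on 8 arrays but 324 on the differentiated and 413 on the reprogrammed osteocyte array, so levels of that pair were set against other arrays only through quantile normalisation. Macrophage markers stood apart on the differentiated chondrocyte and in vivo osteocyte arrays, where 16 of 16 were detected with summed intensities of 195371 and 179731. On the other 8 arrays 2 to 4 of the 16 were detected, with sums of 579 to 1452. The labels held in part. Adipoq, the fat hormone adiponectin, read 14.70 on the differentiated adipocyte array. Comp, a cartilage matrix protein, read 13.77 on the differentiated chondrocyte array, and the cartilage gene Chad was detected there alone, at 8.25. The cartilage collagen Col2a1 read 8.28 there, below 11.09, 10.38 and 10.31 on the reprogrammed adipocyte, chondrocyte and osteocyte arrays. The cartilage gene Sox9 read 9.41 there and 10.97 on MSC 1. The cartilage gene Acan and the osteocyte genes Dmp1, Sost and Mepe were not detected on any array. Of the other bone genes listed, Bglap read 12.24 on the in vivo osteocyte array. It read 6.95 on the differentiated and 6.87 on the treated in vivo osteocyte array, and was not detected elsewhere. Ibsp was detected on the in vivo osteocyte array (9.71) and the differentiated chondrocyte array (9.72) only. Sp7 was detected on 8 arrays, and Phex on 6 but not on the in vivo arrays. In bulk RNA, fewer cells of a type and less RNA per cell cannot be told apart.

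Type I interferons bind the receptor made of Ifnar1 and Ifnar2, and the kinases Jak1 and Tyk2 then activate Stat2. Stat2 and Irf9 belong to a complex that binds the interferon-stimulated response element (ISRE) in promoters. Interferon gamma acts through the receptor chains Ifngr1 and Ifngr2 and the kinases Jak1 and Jak2, and its target promoters hold gamma-activated sites (GAS). The induced proteins sense foreign RNA, block viral entry, translation and budding, or attach ISG15 to other proteins, and some of them feed back on the pathway.

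The promoter windows of the 5 members with a window and the largest difference between the MSC arrays are shown because they carry, or lack, the element through which type I interferons are known to act. Windows run from 250 bases before to 50 bases after the annotated start (RefSeq, GRCm38.p6), 5′ to 3′ on the gene's strand, and capitals mark each match to the ISRE-like core GAAANNGAA on either strand. The windows were Ifit3 at chr19:34583279-34583578 on the plus strand, Oasl2 at chr5:114896684-114896983 on the plus strand, Isg15 at chr4:156200769-156201068 on the minus strand, Rsad2 at chr12:26456403-26456702 on the minus strand and Igtp at chr11:58199306-58199605 on the plus strand.
Ifit3: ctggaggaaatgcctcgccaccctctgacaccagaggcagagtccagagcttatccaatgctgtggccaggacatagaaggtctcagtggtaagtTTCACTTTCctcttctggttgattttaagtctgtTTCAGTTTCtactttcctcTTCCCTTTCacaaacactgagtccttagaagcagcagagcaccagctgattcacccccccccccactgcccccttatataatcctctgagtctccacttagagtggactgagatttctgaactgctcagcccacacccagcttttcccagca
Oasl2: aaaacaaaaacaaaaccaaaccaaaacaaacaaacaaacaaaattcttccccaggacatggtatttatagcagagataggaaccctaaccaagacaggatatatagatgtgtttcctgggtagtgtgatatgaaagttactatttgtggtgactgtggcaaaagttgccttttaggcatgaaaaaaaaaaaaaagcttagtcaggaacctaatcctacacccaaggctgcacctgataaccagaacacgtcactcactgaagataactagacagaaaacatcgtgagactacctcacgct
Isg15: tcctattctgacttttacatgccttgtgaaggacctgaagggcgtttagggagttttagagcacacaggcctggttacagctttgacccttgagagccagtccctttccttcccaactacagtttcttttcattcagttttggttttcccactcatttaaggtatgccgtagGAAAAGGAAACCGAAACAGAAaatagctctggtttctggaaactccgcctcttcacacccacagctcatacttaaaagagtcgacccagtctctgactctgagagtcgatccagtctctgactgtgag
Rsad2: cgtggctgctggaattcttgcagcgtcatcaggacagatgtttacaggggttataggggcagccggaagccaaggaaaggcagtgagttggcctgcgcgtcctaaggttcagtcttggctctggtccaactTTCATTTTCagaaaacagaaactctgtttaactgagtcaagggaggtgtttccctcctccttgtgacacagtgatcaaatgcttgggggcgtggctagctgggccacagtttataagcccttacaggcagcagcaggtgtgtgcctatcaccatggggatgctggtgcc
Igtp: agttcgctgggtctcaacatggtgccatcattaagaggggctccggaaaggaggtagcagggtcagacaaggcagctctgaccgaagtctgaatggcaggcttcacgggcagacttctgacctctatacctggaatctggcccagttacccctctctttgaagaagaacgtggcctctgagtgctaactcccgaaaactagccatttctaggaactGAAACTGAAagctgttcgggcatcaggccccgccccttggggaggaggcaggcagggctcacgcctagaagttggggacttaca
The Ifit3 window held 3 separate matches and the Isg15 window 3 matches that overlap in 1 run of capitals. Rsad2 and Igtp had 1 match each, and Oasl2 had none in this window. A window was held for 36 of the 48 members. Dhx58, Zbp1, Oas2, Usp18, Parp9, Parp14, Mx1, Mx2, Iigp1, Ifi204, Ifi27 and Rtp4 had no entry in the table used.

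The ISRE-like core was common among the members. It was present in 22 of the 36 windows (61.1%), against 9.76% of 27025 genes with a window, taking for each gene the start with the most matches. In 12 members (33.3%) a window held 2 or more matches, counting overlapping ones, against 0.736% of all genes. The GAS-like sequence TTCNNNGAA, searched on both strands, was found in 9 of 36 members (25%) and in 9.55% of all genes. Matches just before the start were found in Gbp2, Gbp3, Oas3, Isg15 and Irgm1, among others. No ISRE-like match was found in 14 members, among them Irf7, Irf9, Oasl2, Ifitm1, Lgals3bp and Sp100. A match is a description of letters and was not tested as a binding site. Among the detected members, MSC 2 lay below MSC 1 by a median of −2.24 in the 21 with a match and −2.60 in the 13 without one, a description with no test.

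**Figure D1:**
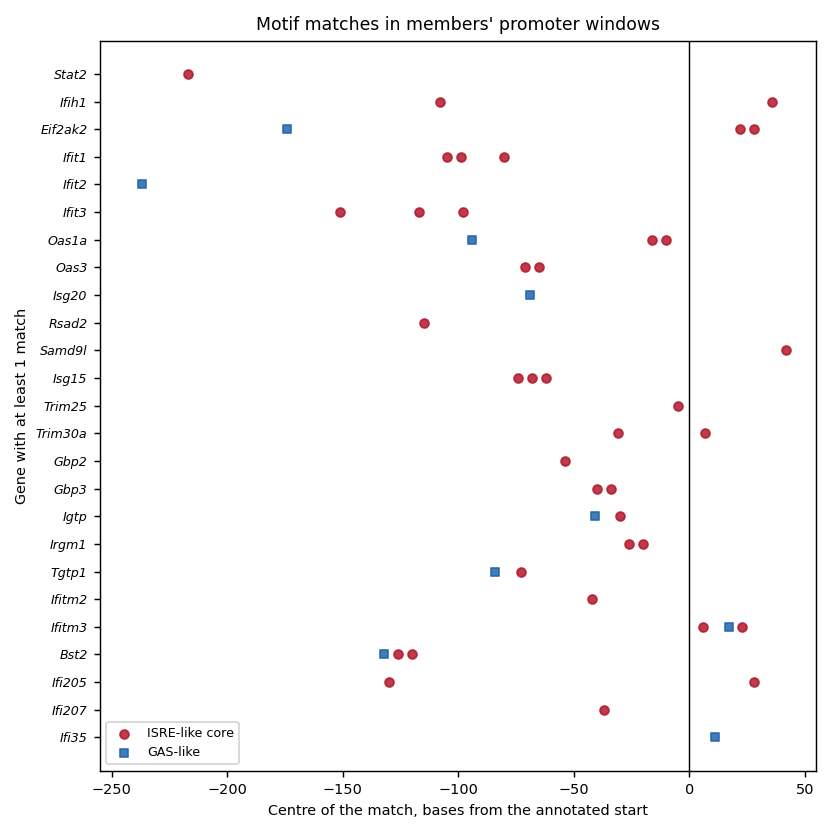
Centres of the ISRE-like (circles) and GAS-like (squares) matches in the promoter windows of the members with at least 1 match, in bases from the annotated start (vertical line). Genes with several annotated starts show the matches of each, and the ISRE-like matches of Isg15, Gbp3, Oas3 and Irgm1 lie close together just before the start.

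The members as a whole were high on 4 arrays and low on the others. The median level of the 43 detected members was 10.40 on MSC 1, 9.70 and 9.34 on the differentiated and reprogrammed osteocyte arrays and 9.28 on the in vivo osteocyte array. It was 7.17 on MSC 2, 7.17 and 6.75 on the differentiated and reprogrammed adipocyte arrays, 7.81 and 6.64 on the chondrocyte arrays and 5.57 on the treated in vivo array. The median over all detected genes stayed between 7.78 and 7.98. The 4 high arrays detected 40 to 42 of the 48 members, and the other 6 detected 22 to 34. Of the 4 high arrays, the in vivo osteocyte array detected 16 of the 16 macrophage markers, and MSC 1 and the differentiated and reprogrammed osteocyte arrays detected 4, 2 and 3. Of the other arrays, the differentiated chondrocyte array, with a member median of 7.81, detected all 16 markers, and the treated in vivo array, with the lowest member median, detected 3.

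**Figure D2:**
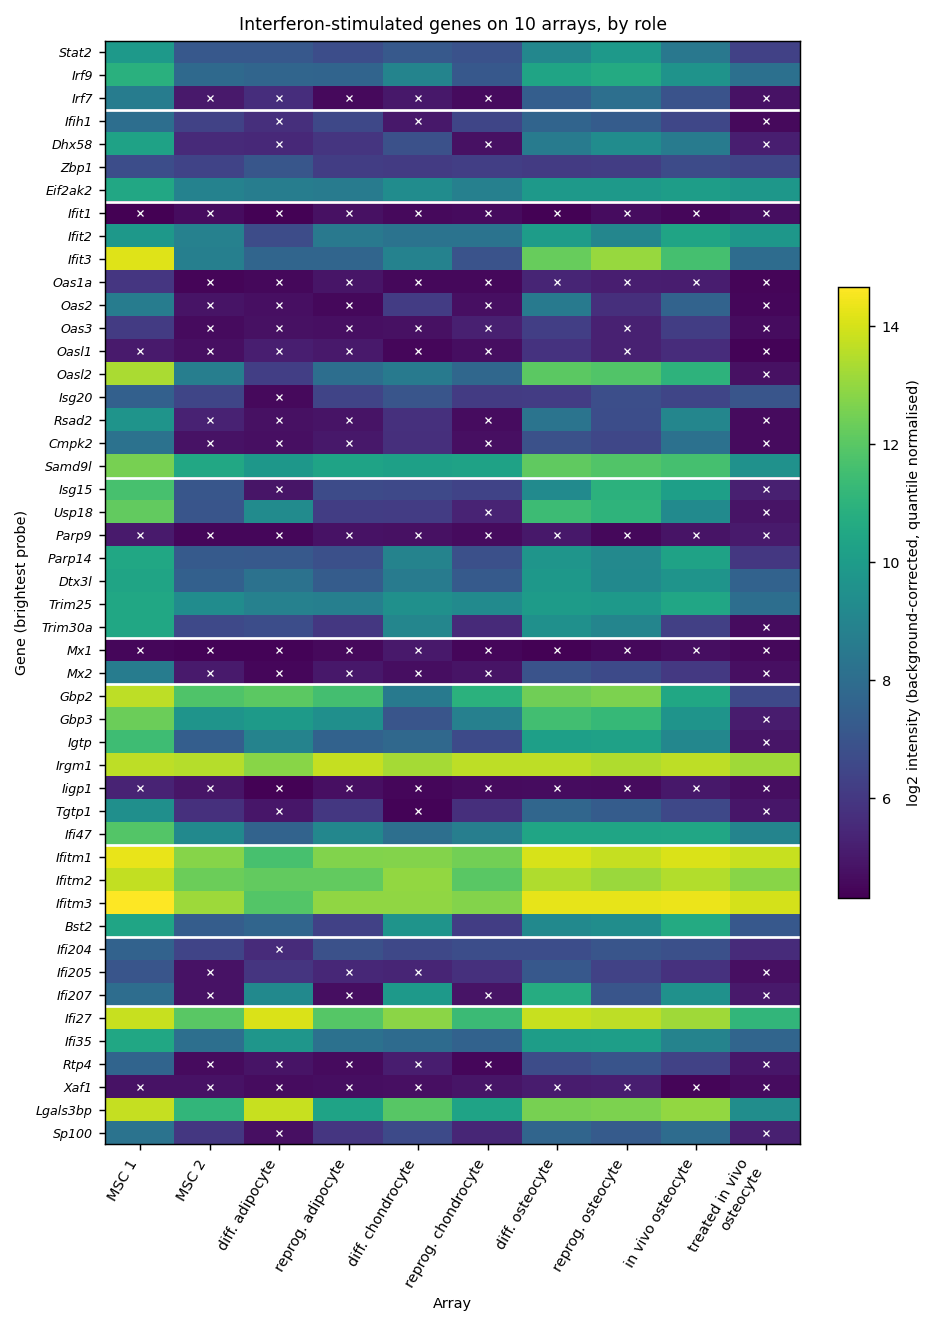
Log2 intensity (colour) of the 48 members by gene and array, grouped by role with white lines, and crosses where the probe was not detected. Most members are brightest on MSC 1, the osteocyte pair and the in vivo osteocyte array, and 5 members carry a cross on every array.

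MSC 1 carried the highest level of 33 of the 43 members, the differentiated osteocyte array that of 4, the differentiated adipocyte array 3, the in vivo osteocyte array 2 and the reprogrammed adipocyte array 1. The lowest level fell on the treated in vivo array for 18 members, the differentiated adipocyte array for 10 and the reprogrammed chondrocyte array for 8. Where several arrays did not detect a probe, as for Oas2 and Cmpk2, which of them read lowest is not settled. In 37 members MSC 1 was above all 4 adipocyte and chondrocyte arrays, and in 33 members both arrays of the osteocyte pair were. Many of the members varied together. Across the 10 arrays, Pearson's r of a member with the median of the other members was above 0.8 for 26 of 43 and under 0.5 for Zbp1, Isg20, Irgm1 and Ifit2. These values describe 10 arrays that share normalisation. None of these counts of members was set beside its share over all detected genes, so none is shown to be particular to this set.

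**Figure D3:**
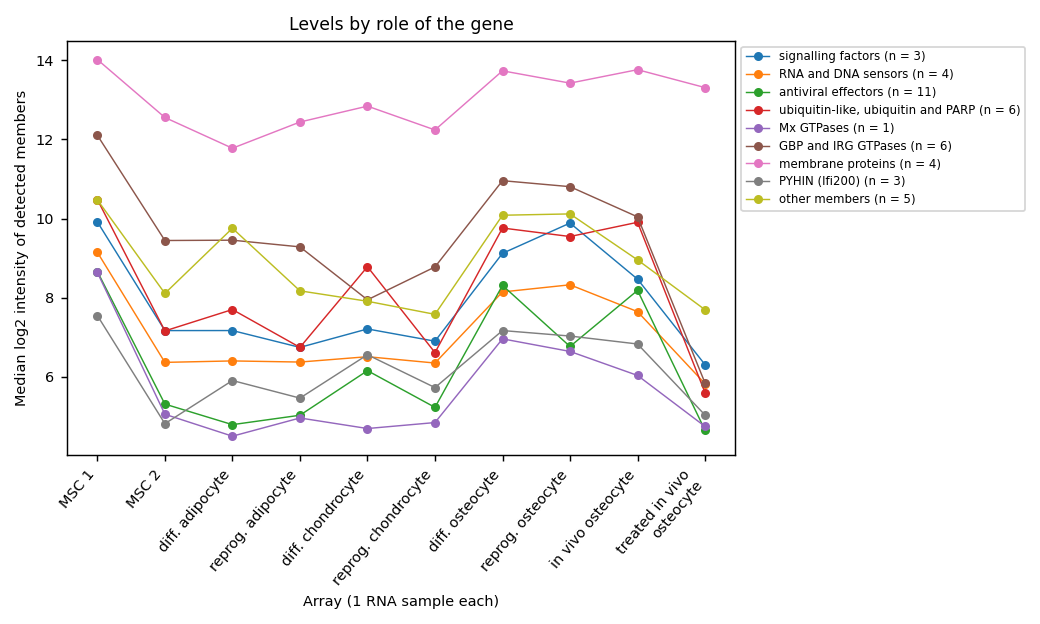
Median log2 intensity of the detected members of each role on each array, where the lines only join the arrays for the eye and the heights of different roles are not compared because probes differ in brightness. Every role lies lower on MSC 2 than on MSC 1 and lower on the treated than on the untreated in vivo array.

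The signalling factors had their highest levels on MSC 1. Irf7, the factor that amplifies type I interferon output, was detected on 4 arrays only. It read 8.64 on MSC 1, 7.41 in differentiated osteocytes, 8.08 in reprogrammed osteocytes and 6.97 in untreated in vivo osteocytes, and 4.57 to 5.67 without detection on the other 6 arrays. Irf9, the DNA-binding subunit of the ISRE complex, read 10.88 and 7.84 on MSC 1 and MSC 2, 7.71 and 7.63 on the differentiated and reprogrammed adipocyte arrays, 8.97 and 7.16 on the chondrocyte arrays in the same order, 10.35 and 10.63 on the osteocyte arrays and 9.62 and 8.14 on the untreated and treated in vivo osteocyte arrays. Stat2, its partner, read 9.92 and 7.17 on MSC 1 and MSC 2, 7.17 and 6.75 in adipocytes, 7.21 and 6.90 in chondrocytes, 9.12 and 9.89 in osteocytes and 8.47 and 6.31 in vivo. Both were detected on every array, and MSC 1 and the osteocyte pair were the 3 highest for each.

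Among the sensors of nucleic acid, Dhx58 (LGP2, a helper of the RNA helicases) had the widest range. It read 10.26 on MSC 1, 5.54 on MSC 2, 5.89 in reprogrammed adipocytes, 6.90 in differentiated chondrocytes, 8.63 in differentiated osteocytes, 9.34 in reprogrammed osteocytes and 8.61 in untreated in vivo osteocytes, and 4.79 to 5.51 without detection on the other 3 arrays. Ifih1 (MDA5, a sensor of long double-stranded RNA) read 8.04 and 6.35 on MSC 1 and MSC 2, 5.72 (not detected) and 6.56 in adipocytes, 4.98 (not detected) and 6.46 in chondrocytes, 7.67 and 7.31 in osteocytes and 6.51 and 4.56 (not detected) in vivo. Its reading on the differentiated chondrocyte array was not above background. Eif2ak2 (PKR, a kinase that stops translation) read 10.53 and 8.91 on MSC 1 and MSC 2, 8.69 and 8.60 in adipocytes, 9.36 and 8.83 in chondrocytes, 9.87 and 9.85 in osteocytes and 10.08 and 9.78 in vivo, a span of 1.92, and was detected on every array. Zbp1, a sensor of Z-form nucleic acid, spanned only 0.97 on its brightest probe, from 6.12 to 7.09.

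The widest range of any member belonged to an antiviral effector. Oasl2, an OAS-like protein, read 13.34 and 8.74 on MSC 1 and MSC 2, 6.25 and 8.07 in adipocytes, 8.57 and 7.78 in chondrocytes, 12.06 and 11.86 in osteocytes and 10.99 and 4.77 (not detected) in vivo. Its range was 8.57, and the lowest reading was that of the treated in vivo array. Ifit3, which works with other Ifit proteins on viral RNA, read 14.15 and 8.78 on MSC 1 and MSC 2, 7.67 and 7.67 in adipocytes, 8.92 and 6.96 in chondrocytes, 12.26 and 13.05 in osteocytes and 11.63 and 7.96 in vivo. Ifit3 was detected on all 10 arrays, so its range of 7.19 is not bounded by detection. Rsad2 (viperin, which makes a chain-terminating nucleotide) was detected on 5 arrays. It read 9.68 on MSC 1, 5.77 in differentiated chondrocytes, 8.31 in differentiated osteocytes, 6.77 in reprogrammed osteocytes and 9.07 in untreated in vivo osteocytes, and 4.63 to 5.31 without detection on the other 5 arrays. Oas2, which makes the messenger that activates RNase L, was detected on the same 5 arrays. It read 8.66 on MSC 1, 6.16 in differentiated chondrocytes, 8.53 in differentiated osteocytes, 5.72 in reprogrammed osteocytes and 7.59 in untreated in vivo osteocytes, and 4.50 to 4.86 without detection on the other 5 arrays. Cmpk2, a mitochondrial nucleotide kinase, was detected on these 5 arrays too, with a range of 3.57.

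Ifit2, a relative of Ifit3, was less like the rest (r = 0.45 with the median of the other members). It read 9.82 and 8.88 on MSC 1 and MSC 2, 6.72 and 8.50 in adipocytes, 8.26 and 8.24 in chondrocytes, 10.03 and 9.05 in osteocytes and 10.36 and 9.80 in vivo. The treated in vivo array, lowest for 18 members, was among the 4 highest for Ifit2. Samd9l, an inhibitor of translation, was detected on every array between 9.54 and 12.53 and followed the set (r = 0.96). Isg20, an exonuclease, lay between 4.58, not detected, on the differentiated adipocyte array and 7.50 on MSC 1. Oas3 was detected on 3 arrays, Oasl1 on 2 and Oas1a on MSC 1 alone, each with a range under 2.

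In the ISG15 system and among the ligases and ADP-ribosyltransferases, 3 members had ranges over 5. Usp18, which removes ISG15 and restrains the type I receptor, read 12.16 and 7.05 on MSC 1 and MSC 2, 9.29 and 6.20 in adipocytes, 6.14 and 5.33 (not detected) in chondrocytes, 11.41 and 11.06 in osteocytes and 9.28 and 4.87 (not detected) in vivo. It was 9.29 on the differentiated adipocyte array, where the median member was 7.17. Isg15, the ubiquitin-like modifier itself, read 11.65 and 7.09 on MSC 1 and MSC 2, 4.91 (not detected) and 6.66 in adipocytes, 6.60 and 6.41 in chondrocytes, 9.27 and 10.95 in osteocytes and 10.16 and 5.22 (not detected) in vivo. On the differentiated adipocyte array the probe of Isg15 was thus not detected while that of Usp18 was. Trim30a, a ubiquitin ligase family member, read 10.50 and 6.59 on MSC 1 and MSC 2, 6.76 and 5.98 in adipocytes, 9.07 and 5.54 in chondrocytes, 9.49 and 9.01 in osteocytes and 6.28 and 4.66 (not detected) in vivo. Its level on the in vivo osteocyte array (6.28) was below that on either array of the osteocyte pair. The remaining detected members of this role were detected on all arrays, with ranges of 4.49 for Parp14 (an ADP-ribosyltransferase), 3.12 for Dtx3l (a ligase that works with PARP9) and 2.40 for Trim25 (a ligase acting on the sensor RIG-I).

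Of the dynamin-like Mx proteins, Mx2 was detected on 4 arrays. It read 8.64 on MSC 1, 6.96 in differentiated osteocytes, 6.64 in reprogrammed osteocytes and 6.04 in untreated in vivo osteocytes, and 4.50 to 5.06 without detection on the other 6 arrays. These were the same 4 arrays that detected Irf7.

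The guanylate-binding proteins and immunity-related GTPases are known for their strong induction by interferon gamma. Gbp2, Gbp3, Tgtp1 and Ifi47 were low on the differentiated chondrocyte array. Gbp2 read 13.65 and 11.80 on MSC 1 and MSC 2, 12.07 and 11.56 in adipocytes, 8.52 and 10.91 in chondrocytes, 12.40 and 12.62 in osteocytes and 10.46 and 6.59 in vivo. Gbp3 read 12.32 and 9.66 on MSC 1 and MSC 2, 9.97 and 9.47 in adipocytes, 7.06 and 8.83 in chondrocytes, 11.51 and 11.23 in osteocytes and 9.66 and 5.09 (not detected) in vivo. For both, the differentiated chondrocyte array was the second lowest of all, below the reprogrammed chondrocyte array. Igtp (Irgm3) read 11.43 and 7.42 on MSC 1 and MSC 2, 8.94 and 7.58 in adipocytes, 7.81 and 6.64 in chondrocytes, 10.16 and 10.24 in osteocytes and 9.08 and 4.89 (not detected) in vivo. Tgtp1 (Irgb6) was detected on 7 arrays, and its differentiated chondrocyte reading was not above background. It read 9.47 on MSC 1, 5.75 on MSC 2, 5.98 in reprogrammed adipocytes, 5.71 in reprogrammed chondrocytes, 7.73 in differentiated osteocytes, 7.31 in reprogrammed osteocytes and 6.55 in untreated in vivo osteocytes, and 4.43 to 4.96 without detection on the other 3 arrays. Ifi47 (Irgd) read 11.89 and 9.23 on MSC 1 and MSC 2, 7.62 and 9.10 in adipocytes, 8.08 and 8.73 in chondrocytes, 10.40 and 10.39 in osteocytes and 10.43 and 9.00 in vivo. The lowest of these was on the differentiated adipocyte array, in contrast with Gbp2, Gbp3 and Igtp, whose lowest was the treated in vivo array. Irgm1, a regulator of the other GTPases, spanned only 0.91 on its brightest probe, from 12.83 to 13.74.

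The membrane proteins were detected on every array. Bst2 (tetherin, which holds budding virus at the surface) read 10.40 and 7.35 on MSC 1 and MSC 2, 7.69 and 6.33 in adipocytes, 9.68 and 6.18 in chondrocytes, 9.22 and 9.38 in osteocytes and 10.65 and 7.15 in vivo. Ifitm3, which blocks viral fusion, read 14.66 and 13.16 on MSC 1 and MSC 2, 11.90 and 12.95 in adipocytes, 12.94 and 12.73 in chondrocytes, 14.27 and 14.28 in osteocytes and 14.35 and 13.98 in vivo. Ifitm1, its relative, read 14.33 and 12.77 on MSC 1 and MSC 2, 11.66 and 12.70 in adipocytes, 12.74 and 12.47 in chondrocytes, 14.05 and 13.73 in osteocytes and 14.07 and 13.81 in vivo. For Ifitm1 and Ifitm3 the treated in vivo reading was close to the untreated one, and both arrays lay near the osteocyte pair. Ifitm2 spanned 1.70.

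The PYHIN (Ifi200) proteins bind DNA. Ifi207 stood out, being detected on MSC 1, all 3 differentiated arrays, the reprogrammed osteocyte array and the in vivo osteocyte array. It read 7.99 on MSC 1, 9.22 in differentiated adipocytes, 9.88 in differentiated chondrocytes, 10.71 in differentiated osteocytes, 7.03 in reprogrammed osteocytes and 9.55 in untreated in vivo osteocytes, and 4.68 to 5.03 without detection on the other 4 arrays. Its readings on the 3 differentiated arrays were above every reading of MSC and reprogrammed cells. Ifi205 read 7.05 and 4.82 (not detected) on MSC 1 and MSC 2, 5.91 and 5.46 (not detected) in adipocytes, 5.38 (not detected) and 5.73 in chondrocytes, 7.17 and 6.36 in osteocytes and 5.77 and 4.74 (not detected) in vivo. Ifi204 read 7.55 and 6.44 on MSC 1 and MSC 2, 5.57 (not detected) and 6.86 in adipocytes, 6.56 and 6.74 in chondrocytes, 6.76 and 7.06 in osteocytes and 6.83 and 5.57 in vivo. On its brightest probe, neither showed the split of Ifi207 between differentiated and reprogrammed arrays. Another Ifi205 probe, detected on 1 array, read 5.57 and 4.57 in adipocytes, 4.61 and 4.46 in chondrocytes and 6.00 and 4.72 in osteocytes. The remaining Ifi205 probe, detected on 2 arrays, read 4.32 and 4.36, 4.83 and 4.34, and 7.30 and 4.56 in the same order. Ifi204, Ifi205 and Ifi207 are close relatives in sequence, and cross-binding of their probes was not tested.

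Of the other members, Lgals3bp, a secreted glycoprotein, read 13.75 and 11.14 on MSC 1 and MSC 2, 13.79 and 10.33 in adipocytes, 11.96 and 10.31 in chondrocytes, 12.53 and 12.63 in osteocytes and 12.97 and 9.39 in vivo. Its highest level was on the differentiated adipocyte array, at 13.79 against 13.75 on MSC 1. Sp100, a component of nuclear bodies, read 8.25 and 5.99 on MSC 1 and MSC 2, 4.72 (not detected) and 5.95 in adipocytes, 6.64 and 5.42 in chondrocytes, 7.70 and 7.26 in osteocytes and 7.99 and 5.20 (not detected) in vivo. Rtp4, a chaperone of membrane receptors, was detected on 4 arrays. It read 7.65 on MSC 1, 6.74 in differentiated osteocytes, 6.99 in reprogrammed osteocytes and 6.37 in untreated in vivo osteocytes, and 4.50 to 5.14 without detection on the other 6 arrays. Ifi27, a small hydrophobic membrane protein, was also highest on the differentiated adipocyte array, at 14.07, and Ifi35 read 9.76 there against 10.47 on MSC 1.

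The arrays of the same label, MSC 1 and MSC 2, differed across nearly the whole set. MSC 2 lay below MSC 1 for 43 of 43 members, with a median difference of −2.66 against −0.02 for all detected genes. On the measured values 39 members were at least 2-fold lower with detection on the higher side, where 7.4% of all detected genes were, and 0 members were at least 2-fold higher, where 6.38% of all genes were. For 2 of the 39, Oas1a and Oas3, the lower limit of the fold was under 2 because MSC 2 did not detect them. Restricted to the 20 members detected on all arrays, the median was −1.94. The 7.4% covers genes detected on at least 1 array, so no count of this restricted set is set beside it. Ifit3 was 41.4-fold lower on MSC 2, Usp18 34.6-fold, Dhx58 26.3-fold, Oasl2 24.2-fold and Isg15 23.5-fold. Rsad2, not detected on MSC 2, was at least 18.4-fold lower. Ifit2, Zbp1, Irgm1 and Oasl1 were the 4 members that were not at least 2-fold lower with detection on MSC 1. The 16 macrophage markers had a median difference of 0.02 between these arrays, with 4 detected on each and 3 of those on both. The macrophage lysozyme Lyz2 was detected on MSC 1 alone, at 6.52 against 4.46, and the mannose receptor Mrc1 on MSC 2 alone. No test is possible between 2 single arrays.

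**Figure D4:**
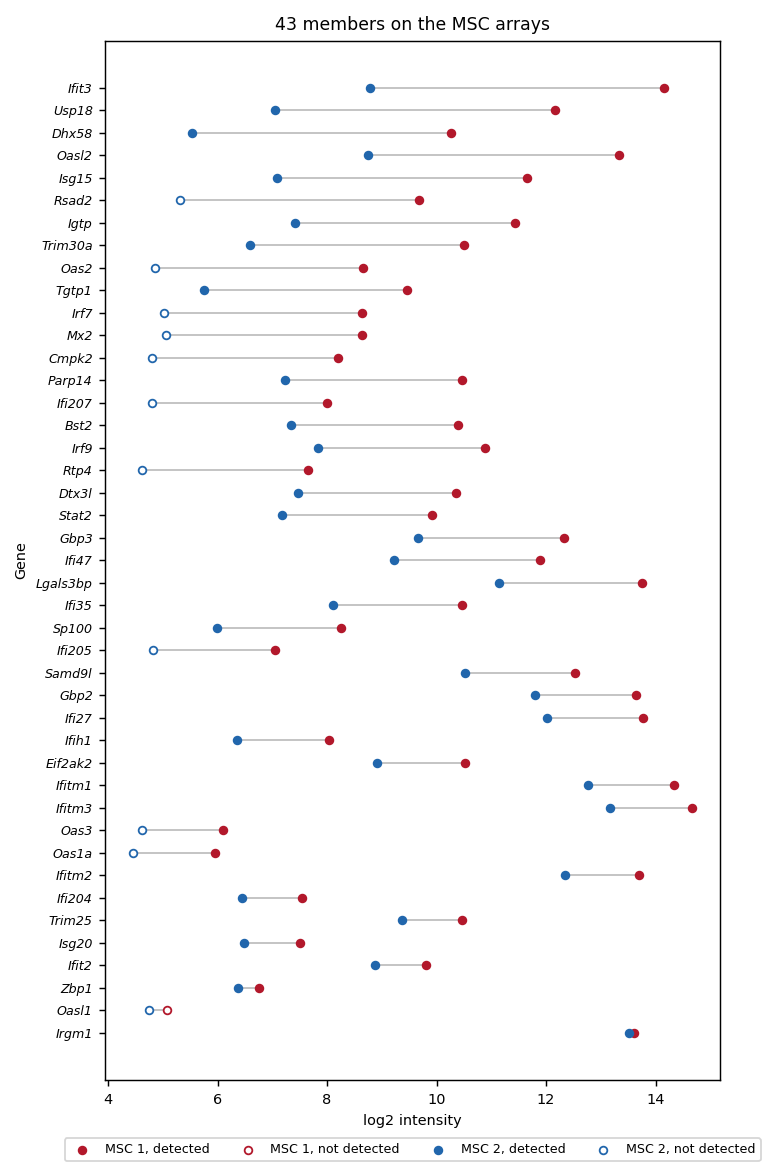
Log2 intensity of the 43 detected members on MSC 1 and MSC 2, ordered by the size of the difference, with open circles where the probe was not detected. MSC 2 lies to the left of MSC 1 for every gene drawn, from −5.37 for Ifit3 to −0.09 for Irgm1.

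The size of every comparison with MSC, and the sign of some, depended on which MSC array was used. The differentiated adipocyte array lay below MSC 1 by a median of −2.75 and below MSC 2 by a median of −0.05, and the reprogrammed adipocyte array gave −2.85 and −0.16. The differentiated chondrocyte array gave −1.79 against MSC 1 and 0.14 against MSC 2, and the reprogrammed one −3.12 and −0.38. The osteocyte pair was between them, with −0.75 and 1.87 for the differentiated and −0.77 and 1.54 for the reprogrammed array. The in vivo osteocyte array gave −0.91 and 1.30 and the treated one −2.99 and −0.35. The adipocyte, reprogrammed chondrocyte and treated in vivo arrays thus lay below both MSC arrays in the median, and the differentiated chondrocyte array and the 3 untreated osteocyte arrays lay between them. These comparisons share the MSC arrays.

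With limma (8 arrays in 1 fit, no lineage term, 5 residual degrees of freedom), no member passed the test between differentiated cells and MSC. The 3 lineages entered this fit as if they were replicates. Of 41 members tested, 0 rose and 0 fell at an adjusted p under 0.05, where 0.0165% of all probes rose and 0% fell. The median difference was −0.70, and 37 of the 41 were below 0. Over all genes tested the median was −0.05, and 5371 of 9954 were below 0. One member passed an unadjusted p under 0.05, namely Ifi207, which was higher in differentiated cells by 3.54 ± 1.01 (SE, limma adjusted p = 0.339). That is 2.44% of the members, where 8.89% of all genes tested passed the same unadjusted limit. Reprogrammed cells against MSC gave 0 rising and 0 falling of 41, with backgrounds of 0% and 0%. The median was −0.90 and 40 members were below 0, against −0.04 and 5404 of 9954 for all genes tested. None of the 41 passed an unadjusted p under 0.05, where 0.352% of all genes did. Without MSC 1 the medians turned to 0.59 and 0.34, and without MSC 2 they were −1.87 and −2.41, with the remaining MSC array assumed to vary like the other groups. Without the osteocyte arrays, which carried other deposited means, they were −1.28 and −1.63, without the chondrocyte arrays −0.42 and −0.52, and without the adipocyte arrays −0.21 and −0.69.

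Reprogrammed against differentiated cells was tested over the 3 lineages as pairs (6 arrays, lineage as a block, 2 residual degrees of freedom). This comparison sets arrays of the same lineage label against each other, and any difference in their cell content enters it. Of 40 members tested, 0 rose and 1 fell, where 0.135% of all probes rose and 0.141% fell. The member that fell was Ifi207. It read 9.94 ± 0.75 (SD, n = 3) on the differentiated and 5.53 ± 1.31 (SD, n = 3) on the reprogrammed arrays, a difference of −4.41 ± 0.40 (SE, limma adjusted p = 0.0411). It was lower in 3 of 3 pairs, by at least 12.7-fold in adipocytes, at least 22.9-fold in chondrocytes and 12.8-fold in osteocytes. Taking the lowest detected signal of an array where the probe was not detected, the mean fall was at least 15.5-fold. The call was lost without background correction, without the detection filter, with detection at p under 0.05 and with the in vivo pair added, with limma adjusted p between 0.0517 and 0.195. The difference was −2.63 without background correction and −4.41 to −4.44 under the other 3 settings.

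The median over the 40 members was −0.23, against 0.01 for all genes tested. Besides Ifi207, 6 members had an unadjusted p under 0.05, and all were lower in reprogrammed cells, though none passed adjustment. With Ifi207 these are 17.5% of the members tested, against 19.3% of all genes tested, so the count is at the background share. Usp18 differed by −1.42 ± 0.58 (SE, limma adjusted p = 0.251) and Oas2 by −1.47 ± 0.54 (SE, limma adjusted p = 0.219). Trim30a differed by −1.60, Lgals3bp by −1.67, Ifi27 by −1.27 and Dtx3l by −0.95, with adjusted p of 0.217 to 0.246. The macrophage markers of the differentiated chondrocyte array enter this comparison, and their part in these values was not tested. On the differentiated adipocyte, chondrocyte and osteocyte arrays Ifi207 read 9.22, 9.88 and 10.71, and 2, 16 and 2 of the 16 macrophage markers were detected.

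Within each lineage the members went both ways. In adipocytes the median difference of reprogrammed from differentiated cells was −0.07. At least 2-fold higher were 10 members (14.9% of all genes were) and 7 were at least 2-fold lower (15.1% of all genes), on the measured values. The lower ones were Ifi207, Lgals3bp (11-fold), Usp18 (8.5-fold), Ifi27 (4.42-fold), Ifi35 (2.99-fold), Igtp and Bst2. The higher ones included Oasl2 (3.52-fold), Ifit2 (3.42-fold) and Ifi47 (2.79-fold), which were detected on both arrays. For 4 of the 10, Isg15, Isg20, Sp100 and Tgtp1, the differentiated array did not detect the probe and the lower limit of the fold was under 2, so 6 were at least 2-fold higher at their limit.

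In chondrocytes the median was −0.37, with 4 members at least 2-fold higher (16.7% of all genes) and 14 at least 2-fold lower (18.1%) on the measured values. Ifi207 was at least 22.9-fold lower. Among members detected on both arrays the largest falls in level were those of Trim30a (11.5-fold), Bst2 (11.4-fold), Parp14 (4.4-fold), Ifit3 (3.88-fold) and Irf9 (3.52-fold), and Dhx58 was at least 2.91-fold lower. For Oas2 and Rsad2 the lower limit was under 2, which leaves 12 members at least 2-fold lower at their limit. Gbp2 (5.25-fold), Gbp3 (3.41-fold) and Ifih1 (at least 2.05-fold) were higher, and the fourth, Tgtp1, was not detected in differentiated cells and has a lower limit of 1.22-fold. All 16 macrophage markers were lower on the reprogrammed array in this pair, by a median of −8.31, and their part in these 14 members was not tested.

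In osteocytes the median was −0.19, with 1 member at least 2-fold higher (7.57%) and 3 at least 2-fold lower (10.7%). Isg15 was 3.21-fold higher in reprogrammed cells. Ifi207 was 12.8-fold lower, Oas2 7.01-fold and Rsad2 2.92-fold. Both arrays of this pair were high for the set, and the other 39 members did not pass 2-fold.

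The treated in vivo osteocyte array lay far below the untreated one. The median difference was −2.06, with 34 members at least 2-fold lower (16.1% of all genes) and 0 at least 2-fold higher (13%) on the measured values. At their lower limits 28 members were at least 2-fold lower, the exceptions being Ifi205, Mx2, Oas3, Oasl1, Rtp4 and Trim30a. Oasl2 was at least 47.9-fold lower, Isg15 at least 26.9-fold, Gbp3 at least 19-fold, Ifi207 at least 17.7-fold and Parp14 19.5-fold. The other 9 members were not at least 2-fold lower, namely Ifitm1, Ifitm2, Ifitm3, Ifit2, Isg20, Eif2ak2, Irgm1, Zbp1 and Oas1a. On the same arrays 16 of 16 macrophage markers were lower by a median of −8.09, with 3 of 16 still detected. Their part in the fall of the members was not tested, and 1 array a side gives no test.

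**Figure D5:**
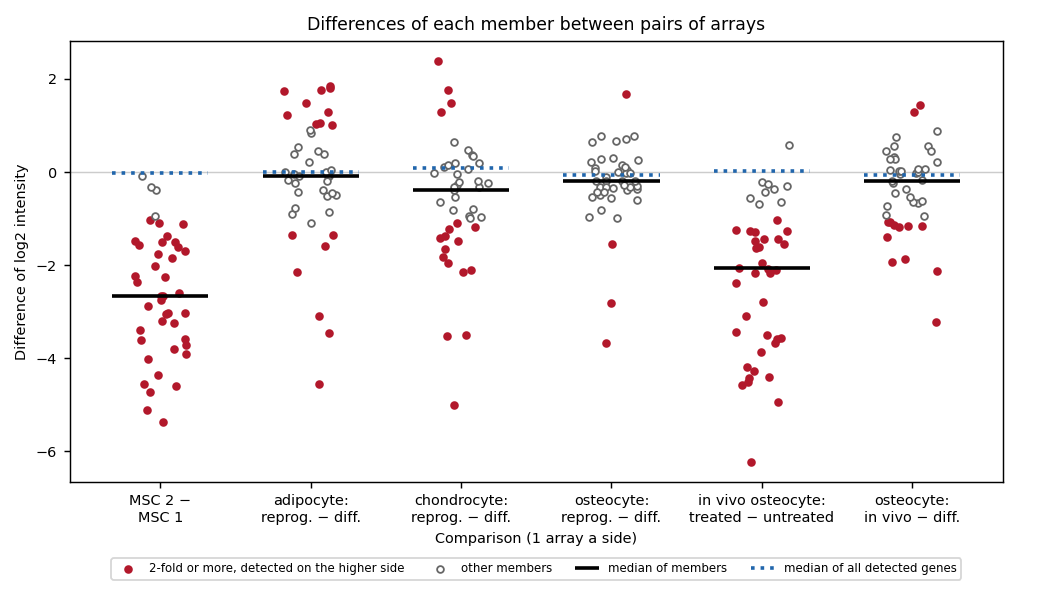
Difference of log2 intensity of each of the 43 detected members between 2 single arrays, for 6 comparisons, with filled red points at 2-fold or more and detection on the higher side, black lines at the median of the members and dotted blue lines at the median of all detected genes. The members fall together from MSC 1 to MSC 2 (median −2.66) and from untreated to treated in vivo osteocytes (−2.06), and go both ways in the 3 lineage pairs.

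Osteocytes derived in vivo were set against the array labelled differentiated osteocytes, and the median difference was −0.19. At least 2-fold higher in vivo were 2 members (16.3%), Bst2 (2.7-fold) and Cmpk2 (2.45-fold), and 11 were at least 2-fold lower (15.1%). The largest falls in level were those of Trim30a (9.28-fold), Usp18 (4.36-fold), Gbp2 (3.82-fold), Gbp3 (3.62-fold) and Ifi205 (2.64-fold). In this comparison the macrophage markers were higher in vivo by a median of 8.29, with 16 of 16 detected against 2. Their part was not tested, and the arrays carried different deposited means.

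The genes that make and pass the interferon signal were listed separately. Of 25 pathway genes with a probe, 20 were detected on at least 1 array. Ifna2, Ifnb1 and Ifng, the only interferons on this list, were not detected on any array, and neither were Ifnar1 and the feedback inhibitor Socs1. Other interferon genes were not looked up. The other receptor chain of type I interferon, Ifnar2, was detected on 8 arrays, between 6.08 and 7.62, and not on the differentiated adipocyte and differentiated osteocyte arrays. Ifngr1 read 10.72 and 8.90 on MSC 1 and MSC 2, 11.62 and 8.92 in adipocytes, 10.27 and 8.63 in chondrocytes, 10.56 and 9.45 in osteocytes and 9.49 and 8.98 in vivo. It was highest in the differentiated adipocytes, not on MSC 1. Ifngr2 stayed between 8.41 and 9.80 on all arrays. Irf1, a factor induced by interferon gamma, read 12.24 and 11.21 on MSC 1 and MSC 2, 11.42 and 11.08 in adipocytes, 10.18 and 11.33 in chondrocytes, 11.96 and 11.48 in osteocytes and 11.73 and 11.06 in vivo. It was highest on MSC 1, like most members, and lowest on the differentiated chondrocyte array.

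Between the MSC arrays, 6 of the 20 detected pathway genes were at least 2-fold lower on MSC 2, namely Ifngr1, Jak2, Irf1, Ddx58, Tlr3 and Sting1, where 7.4% of all genes were, and Irf5 was higher, where 6.38% were. The median of the 20 was −0.36. Ddx58, the RNA sensor RIG-I, fell from 9.81 to 7.74 between these arrays. Irf8 and Tlr7, which immune cells of the myeloid and plasmacytoid lines use, were detected only on the differentiated chondrocyte and in vivo osteocyte arrays, at 9.98 and 10.06 for Irf8 and 10.93 and 9.97 for Tlr7. Treated against untreated in vivo osteocytes had 9 of the 20 at least 2-fold lower (16.1% of all genes) and 0 higher (13%). Of 18 pathway genes tested with limma, 0 were called in each of the 3 tests, and 3, 0 and 0 had an unadjusted p under 0.05. The 3 are 16.7% of the 18, against 19.3% of all genes in that test.

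Probes of the same gene did not always move together. Of the 48 members 24 had more than 1 probe, and 16 had more than 1 detected. The brightest probe of Irgm1 differed by −0.09 between the MSC arrays, while its other probes differed by −2.06 and −1.78. The brightest probe of Zbp1 differed by −0.38 and its second by −2.73, from 7.40 to 4.66 with MSC 2 not detected. The second probe of Dtx3l correlated with the first at r = −0.04 across the 10 arrays. For Irgm1 and Zbp1 the flat pattern given above is therefore that of 1 probe.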

How the data were processed

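The data were 10 Illumina mouse bead arrays, 1 per RNA sample. RNA was extracted with a column kit and biotinylated cRNA was made from it, per the labels' protocols. The deposited scanner table gave, per the file headers, an intensity summarised over beads with its detection p-value, for 45281 probes an array. The authors' scaling of these intensities was not stated in the labels or headers. A probe was named from the platform annotation: 34885 probes had 1 gene symbol, 18 had several and 10378 had none.

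Intensities were background-corrected with an offset of 16 and quantile-normalised on the log2 scale by neqc of limma 3.58.1 (R 4.3.3). Genes took their brightest probe. Single arrays were compared by 2-fold or more with detection (p under 0.01) on the higher side. Where the lower side was not detected, its array's lowest detected signal, or the probe's own if higher, gave "at least N-fold". The 3 tests used lmFit and eBayes on probes that 2 or more of the fitted arrays detected, with Benjamini-Hochberg adjustment over all probes at 0.05. The script was tested on simulated data. The number of arrays limits the precision, and limma p-values measure the spread between these arrays. In the fits with MSC that spread includes the differences between lineages. In the fit over pairs it is the spread of the pair differences from lineage to lineage.

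The authors' deposited value table held log2 values for the osteocyte pair and linear intensities for the other arrays, judged from the values. By probe ID its columns followed the scanner table for the osteocyte pair (Spearman 1.00 and 0.998) but not for the other 8 arrays (−0.00745 to −0.00155), so it served only as an alternative for that pair. In the scanner table Adipoq and Comp were highest on the arrays labelled for their lineage, but the cartilage genes Col2a1 and Sox9 were not.

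The members and gene lists were chosen with earlier results of these data known. All 48 members are accounted for. Levels on every array are given for the up to 3 detected members of each role with the widest range (5 for antiviral effectors and GTPases), and for each comparison the up to 5 members with the largest difference each way. Alternatives changed the background correction, scaling, detection threshold, filter, probe choice, fold, lineage block and the arrays used. No array was left out otherwise.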

Additional observations from a re-analysis of the deposited data

Results flagged for a closer look

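Sp100, a component of nuclear bodies, went in opposite directions in 2 lineages. Reprogrammed adipocytes lay above differentiated ones by 1.23 (log2 difference), and reprogrammed chondrocytes lay below differentiated ones (difference −1.21), with 1 array a side. The differentiated adipocyte array did not detect the probe, so the first of these is at least 1.13-fold. The difference between the lineages was not tested.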

How the results depend on the processing

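The only call among the members, the fall of Ifi207 in reprogrammed against differentiated cells, became 0 members without background correction (difference −2.63, limma adjusted p = 0.133), without the detection filter (0.195), with detection at p under 0.05 (0.0535) and with the in vivo pair added (0.0517). It held with 75th percentile scaling, with the mean over probes, without the lineage block (limma adjusted p = 0.0326) and without each pair in turn (0.00965 to 0.0262). The count of probes called in that test was 49, and ranged from 0 to 344. Without each pair in turn the median of the members ranged from −0.28 to −0.07, and with the in vivo pair added it was −0.61. Differentiated against MSC ranged from −1.87 to 0.59 and reprogrammed against MSC from −2.41 to 0.34 when arrays were left out, and both turned positive without MSC 1.

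Without background correction, the members at least 2-fold higher became 4 in the adipocyte pair, 2 in the chondrocyte pair and 1 for in vivo against differentiated osteocytes, and those at least 2-fold lower became 8 in the chondrocyte pair and 6 for in vivo against differentiated osteocytes. With 1.5-fold as the limit, the osteocyte pair had 6 higher and 7 lower, the treated in vivo array 1 higher, and in vivo against differentiated osteocytes 4 higher and 17 lower. With the mean over probes the osteocyte pair had 2 higher. Another 171 values of comparisons moved by less than the spread or by under 1.5 times. The SD of the member medians of MSC 1 and MSC 2, 2.28, is that spread, so it allows large moves. The sign changes of the MSC comparisons without MSC 1 are therefore among the 171. Why these values moved was not tested.

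Pairing was by lineage, as given above. By replicate number, no paired analysis was possible because only the MSC group has more than 1 array. Levels near background are bounds, and 23 of the 43 detected members were below detection on some arrays. On MSC 1 and MSC 2 the member medians were 10.50 and 8.07 without background correction and 10.43 and 7.16 with 75th percentile scaling, an alternative chosen after seeing the data.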
